A study of Mus musculus with 9 samples.

Results

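Of the 38685 genes and loci measured in testis RNA, the 10 examined here are genes that resident macrophages of the testis are known to express: Csf1r, Cd68, Adgre1, Mrc1, C1qa, C1qb, C1qc, Cd74, H2-Aa and Lyz2. They were taken by symbol, with earlier results of these data known, and each symbol named 1 row of the table. RNA came from whole testes, freed of the tunica albuginea, of C57BL/6 males in 3 groups of 3: wildtype (Prm2+/+), heterozygous (Prm2+/-) and deficient (Prm2-/-) for Protamine 2, a protein that packs DNA in the sperm head. No other allele or agent is named for any group. The deficient lines had been made by CRISPR/Cas9 editing in oocytes, and neither the line nor the age of the males used for RNA is given in the sources used here. The study asked of these libraries whether loss of Prm2 alters gene expression in the testis as a whole.

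Macrophages live in the interstitium of the testis, close to the Leydig cells that make testosterone, and around the seminiferous tubules. Those of the interstitium are known for the receptors CSF1R and CD206 (Mrc1), and those around the tubules for class II antigen presentation. They take up debris, make complement C1q and are known for a dampened response to inflammatory stimuli in this tissue. In a whole testis they are outnumbered by germ cells, so that their transcripts form a small share of the RNA.

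No difference between genotypes passed the test in the 9 of the 10 genes with enough counts, and between Prm2-/- and Prm2+/+ only 0.181% of all genes tested did. Csf1r, Lyz2 and H2-Aa were the most closely bounded. Adgre1, C1qa, C1qc and Cd68 were read in some libraries and at 0 in others, so that changes of several fold were not resolved. Mrc1 was lower in every Prm2-/- library than in every Prm2+/+ library, as were 7.1% of all genes tested, and its highest value was in 1 heterozygous library.

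Sequences upstream of the start sites are shown first, since they show what several of these genes have in common outside the measurements. The windows come from the RefSeq promoter table for GRCm38.p6, are written 5′ to 3′ on the strand of the gene, and end before the start site. Capitals mark ACTTCCT, the opposite strand of AGGAAGT, a core of the kind bound by PU.1, the factor that myeloid cells depend on.

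Mrc1 (chr2:14229178-14229234, + strand, match beginning 211 bases before the start): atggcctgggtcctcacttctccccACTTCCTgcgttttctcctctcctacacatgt
C1qb (chr4:136886222-136886278, - strand, 53 bases before): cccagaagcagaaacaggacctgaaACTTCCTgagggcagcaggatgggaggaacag
C1qc (chr4:136893078-136893134, - strand, 195 bases before): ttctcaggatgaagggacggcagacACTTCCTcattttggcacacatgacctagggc
Lyz2 (chr10:117282341-117282397, - strand, 100 bases before): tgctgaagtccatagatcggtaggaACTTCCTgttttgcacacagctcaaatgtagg

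In the window of H2-Aa, capitals mark CTGATTGG, the Y box of class II promoters, which is bound by NF-Y.

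H2-Aa (chr17:34287842-34287899, - strand, 51 bases before): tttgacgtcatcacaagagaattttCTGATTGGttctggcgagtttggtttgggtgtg

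Promoters were searched on both strands over 250 bases upstream for 6 of the 10 genes: Cd68, Mrc1, C1qb, C1qc, H2-Aa and Lyz2. Those of Csf1r, Cd74, C1qa and Adgre1 were not searched. The sequence AGGAAGT or its opposite strand occurred in 4 of the 6 genes and in 7.69% of all 32851 promoters. The first number counts genes with a match in any of their promoters, while the percentage is a share of single promoters. CTGATTGG or its opposite strand, CCAATCAG, occurred in 1 of the 6 and in 3.83% of all promoters. The 2 sequences do not overlap each other. Such a match describes the letters in these windows and no binding was measured.

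The libraries were made with QuantSeq, which reads polyadenylated RNA near its 3′ end. The deposited value of a gene is a normalized count, that is, its count divided by 1 size factor per library, and the counts recovered from these values summed to between 3629929 and 4490411 per library. To compare genotypes, 1 was added to each normalized count, log2 was taken, and limma was fitted to the 14893 genes with enough counts, with Benjamini-Hochberg adjustment over all of them. A log2 fold change (LFC) is on that scale, whose size for genes with low counts depends on the added 1, and a gene was called at an adjusted p under 0.05 and an LFC beyond 0.5. Values are mean ± SD of 3 libraries, which the study describes as biological replicates. Intervals of an LFC cover 95%. The transcript of Prm2 itself ranged from 29716 to 39665 normalized counts in Prm2+/+, from 30174 to 34487 in Prm2+/- and from 34660 to 42766 in Prm2-/- (limma adjusted p = 0.746 for Prm2-/- against Prm2+/+). Its level therefore does not check the labels, and genotypes below are those of the libraries as labelled.

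The 10 genes together held between 304 and 496 counts per library. As CPM, which scales the total of a library to 1000000, this was 103, 109 and 83.7 in Prm2+/+, 89.6, 93.3 and 110.5 in Prm2+/-, and 106, 98.9 and 106 in Prm2-/- (replicates 1, 2 and 3, the order used for every gene). The 3 genotypes overlapped, and the lowest and highest sums came from the control genotypes. All 10 genes were above 0 in some library, and 6 of them in all 9 libraries. The number at 0 was 2, 0 and 3 in Prm2+/+, 2 in each Prm2+/- library, and 0, 1 and 0 in Prm2-/-. In bulk RNA, fewer macrophages and less RNA per macrophage cannot be told apart.

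**Figure D1:**
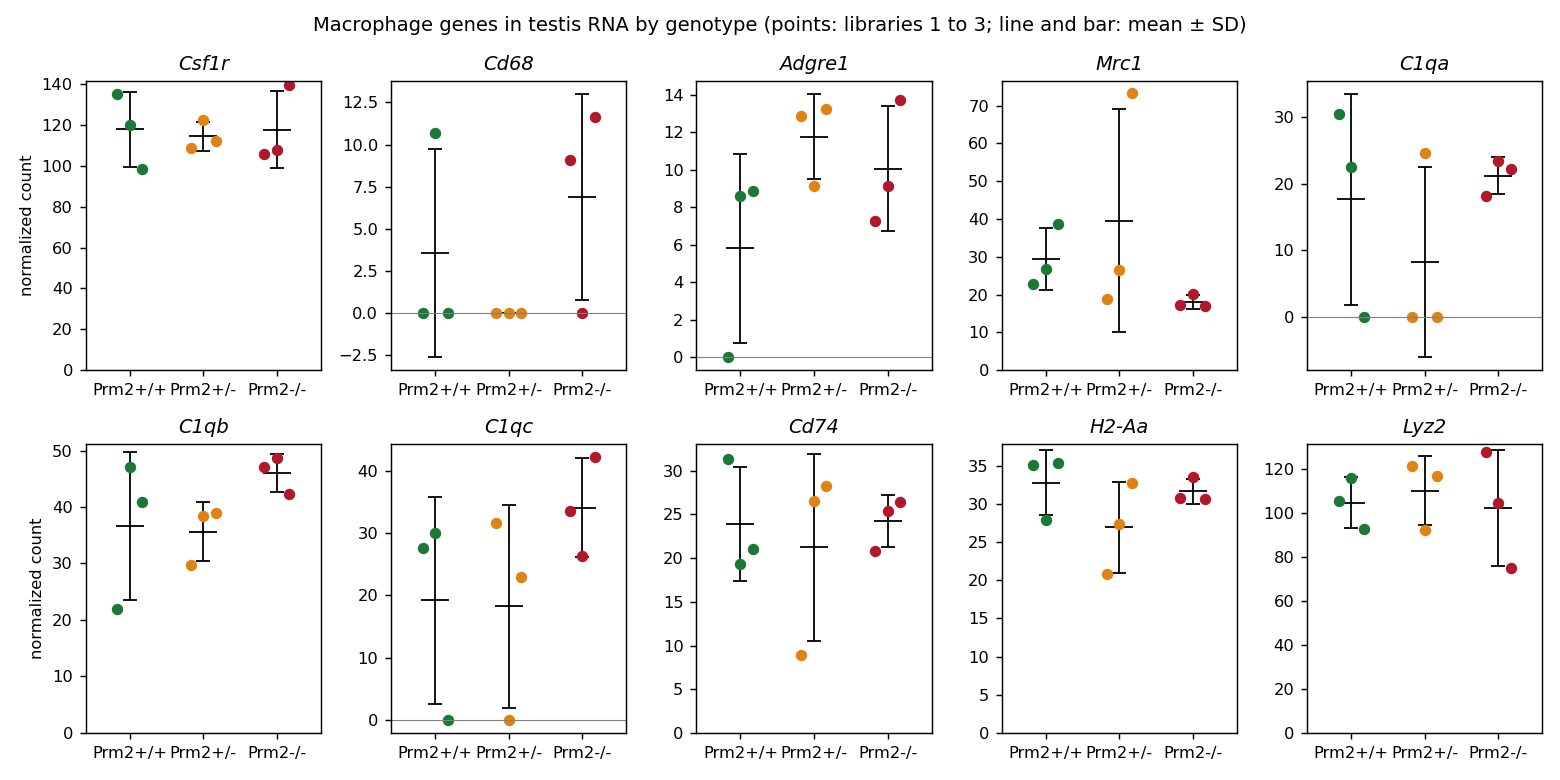
Normalized counts of the 10 genes in each of the 9 libraries, 1 panel per gene, with genotype on the x axis, a point per library and the mean ± SD as a line and bar (SD bars that reach below 0 mark genes with libraries at 0). The genotypes overlap in most panels, and C1qa, C1qc, Cd68 and Adgre1 have libraries at 0.

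Csf1r encodes the receptor for CSF1 and IL34, on which macrophages depend for survival. It had 135, 120.0 and 98.3 normalized counts in Prm2+/+, 109, 122 and 112 in Prm2+/-, and 106, 108 and 139 in Prm2-/-. The lowest value was in a wildtype and the highest in a deficient library, and all 3 genotypes overlapped. The means were 118 ± 18.4, 114 ± 7.10 and 118 ± 18.9. The LFC of Csf1r between Prm2-/- and Prm2+/+ was -0.00122 (SE 0.16, interval -0.38 to 0.37, adjusted p = 0.999), which bounds the fold change between 0.771 and 1.29. Its coefficient of variation over the 9 libraries was 11.8%, against 9.18% for counting error alone at its mean count.

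The 3′ end of Csf1r (GRCm38, chromosome 18, 61100598 to 61132149, plus strand) runs into that of Hmgxb3 on the minus strand. They share 873 bases, from 61131277 to 61132149, which GENCODE M21 places in the 3′ UTR of Csf1r and in the last exon of Hmgxb3. Whether the counting used the strand is not given in the sources used here, so reads there could have gone to either gene. Hmgxb3 had 0, 82.5 and 60.8 normalized counts in Prm2+/+, 0 in each of the 3 Prm2+/- libraries, and 74.3, 78.1 and 0 in Prm2-/-. Csf1r had 98.3 to 120.0 in the 4 libraries with Hmgxb3 above 0 and 109 to 139 in the 5 with Hmgxb3 at 0. The ranges overlapped only through replicate 2 of Prm2+/+, at 120.0. In the other libraries with Hmgxb3 above 0, Csf1r had 98.3, 106 and 108, below every library with Hmgxb3 at 0. The part of the overlap in the level of Csf1r was not tested.

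**Figure D2:**
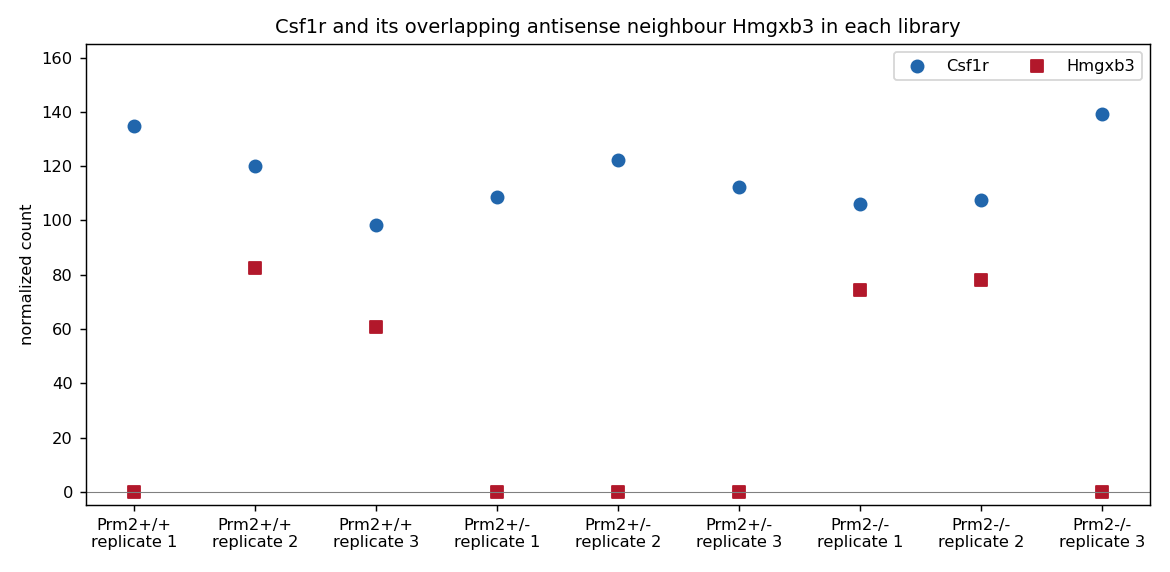
Normalized counts (y axis) of Csf1r (circles) and of its 3′ neighbour Hmgxb3 (squares) in each of the 9 libraries (x axis). Hmgxb3 was at 0 in 5 libraries and between 60.8 and 82.5 in 4, while Csf1r stayed between 98.3 and 139.

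Adgre1, the F4/80 antigen used to stain macrophages in mouse tissue, was read at few counts. It spans 57358691 to 57483527 of chromosome 17 (GRCm38, plus strand). It had 0, 8.57 and 8.84 normalized counts in Prm2+/+, 12.9, 9.13 and 13.3 in Prm2+/-, and 7.24, 9.13 and 13.7 in Prm2-/-. All Prm2+/- libraries lay above all Prm2+/+ libraries, the lowest of them by less than 1 normalized count, and 4.88% of all genes tested lay so. The LFC was 1.24 between Prm2-/- and Prm2+/+ (SE 0.85, adjusted p = 0.751) and 1.47 between Prm2+/- and Prm2+/+ (SE 0.85, adjusted p = 0.842). Replicate 1 of Prm2+/+, at 0, decided both: without it they were 0.14 and 0.38. In edgeR, which works on the counts, they were 0.81 and 1.03.

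Cd68, a glycoprotein of lysosomes and endosomes that is abundant in phagocytes, was at 0 in 6 of 9 libraries. The gene spans 69664213 to 69666153 of chromosome 11 (minus strand), 783 bases from Eif4a1. It had 10.7 normalized counts in replicate 2 of Prm2+/+, and 9.06 and 11.6 in replicates 1 and 3 of Prm2-/-. No Prm2+/- library held a count of it. These values rest on 10 or more counts each, while a 0 allows up to 3 counts, or 2.65 to 3.31 normalized counts depending on the library. Cd68 was the only gene of the 10 that did not have enough counts for the test. When every gene with a count was tested, its LFC was 1.15 for Prm2-/- against Prm2+/+ (limma adjusted p = 0.816) and 2.33 against Prm2+/- (limma adjusted p = 0.918).

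Mrc1 encodes the mannose receptor CD206, which binds and internalises glycoproteins, on chromosome 2 from 14229392 to 14332057 (plus strand, with Mir511 inside the gene). Its normalized counts were 22.8, 26.8 and 38.7 in Prm2+/+, 18.8, 26.5 and 73.3 in Prm2+/-, and 17.2, 20.3 and 16.9 in Prm2-/-. Every Prm2-/- library was below every Prm2+/+ library. The LFC was -0.64 (SE 0.46, interval -1.70 to 0.42, adjusted p = 0.753 in limma), so that a fold change from 0.307 to 1.34 could not be told from no change. Replicate 3 of Prm2+/- stood far above the other 8 libraries. The spread of Mrc1 over the 9 libraries was 61.8% of its mean, against 18.3% for counting error alone.

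The difference of Mrc1 between Prm2-/- and Prm2+/- was an LFC of -0.85 (SE 0.46, interval -1.91 to 0.22, unadjusted p = 0.103, adjusted p = 0.963 in limma). Without replicate 3 of Prm2+/- it was -0.29, and the LFC between Prm2+/- and Prm2+/+ moved from 0.21 to -0.35. In that library the other 9 genes lay within the range of the remaining libraries.

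The 3 chains of C1q, the molecule that starts the classical complement pathway and is made largely by tissue macrophages, are encoded next to each other on chromosome 4 of GRCm38, all on the minus strand: C1qb from 136880129 to 136886187, C1qc from 136889804 to 136893065 and C1qa from 136895917 to 136898803. The gaps between them are 3617 and 2852 bases. Since the protein is assembled from all 3 chains, macrophages are known to express them together.

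C1qb had 21.9, 47.2 and 40.9 normalized counts in Prm2+/+, 29.7, 38.4 and 39 in Prm2+/-, and 47.1, 48.7 and 42.2 in Prm2-/-. It was above 0 in every library, and each Prm2-/- library lay above each Prm2+/- library, as did those of 7.47% of all genes tested. The LFC of C1qb was 0.39 between Prm2-/- and Prm2+/+ (SE 0.28, interval -0.26 to 1.03, adjusted p = 0.753) and 0.37 between Prm2-/- and Prm2+/- (SE 0.28, adjusted p = 0.979). The means were 36.6 ± 13.2, 35.6 ± 5.18 and 46.0 ± 3.37 in Prm2+/+, Prm2+/- and Prm2-/-, a difference between the first and the last within the spread of the wildtype libraries. The LFC against Prm2+/+ moved with single wildtype libraries: it was 0.064 without replicate 1 and 0.60 without replicate 2.

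C1qa had 30.4, 22.5 and 0 normalized counts in Prm2+/+, 0, 24.7 and 0 in Prm2+/-, and 18.1, 23.3 and 22.2 in Prm2-/-. C1qc had 27.6, 30.0 and 0 in Prm2+/+, 31.6, 0 and 23.0 in Prm2+/-, and 33.5, 26.4 and 42.2 in Prm2-/-. Neither gene had an intermediate value: C1qa was at 0 or at 20 to 32 counts, and C1qc at 0 or at 26 to 40 counts. Each Prm2+/- library lacked 1 of the 3 chains, C1qa in replicates 1 and 3 and C1qc in replicate 2. Replicate 3 of Prm2+/+ lacked both C1qa and C1qc, and no Prm2-/- library lacked a chain. Of all libraries, replicate 3 of Prm2+/+ had the lowest count total, 3629929. It also had the fewest genes and loci above 0, 19028 against 19873 to 20526 in the others.

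Values of this kind were not confined to C1q. Of the tested genes, 1130 (7.59%) were at 0 in 1 or more libraries, and 227 (1.52%) were at 0 in some and had at least 20 counts in every other library. The limit of 20 counts was chosen after the values of C1qa had been seen. What sets such genes to 0 was not tested, and it cannot be told from these values whether a 0 of C1qa or C1qc is a level in the tissue.

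The LFC of C1qa between Prm2-/- and Prm2+/+ was 1.29 (SE 1.61, interval -2.42 to 5.0, adjusted p = 0.831) and that of C1qc 1.84 (SE 1.64, interval -1.95 to 5.63, adjusted p = 0.778). Against Prm2+/- the LFC was 2.90 for C1qa (SE 1.61, adjusted p = 0.963) and 1.90 for C1qc (SE 1.64, adjusted p = 0.986). The fitted size of both depends on the constant added before the logarithm: for Prm2-/- against Prm2+/+ it was 1.61 and 2.17 with 0.5 in place of 1, and 0.62 and 1.11 with 5. Without replicate 3 of Prm2+/+ it was -0.30 for C1qa and 0.21 for C1qc. Without replicate 2 of Prm2+/-, the LFC against Prm2+/- was 4.47 for C1qa and 0.30 for C1qc. In the libraries above 0, C1qa averaged 26.5 in 2 Prm2+/+ and 21.2 in 3 Prm2-/- libraries, and C1qc 28.8 and 34.0.

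In edgeR and DESeq2, which compare mean counts and not mean logarithms, the LFC of C1qa and C1qc were smaller. For Prm2-/- against Prm2+/+ they were 0.25 and 0.27 for C1qa and 0.82 and 0.83 for C1qc. Against Prm2+/- edgeR gave 1.35 for C1qa and 0.91 for C1qc.

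Summed over the 3 chains, the normalized counts were 79.8, 99.7 and 40.9 in Prm2+/+, 61.3, 63.0 and 61.9 in Prm2+/-, and 98.7, 98.4 and 107 in Prm2-/-. The 3 heterozygous sums were close to each other although a different chain was missing in replicate 2 from the other two. The deficient libraries lay above the heterozygous ones, as did those of 7.47% of single genes tested, with 0 of the 9 chain values at 0 in Prm2-/- and 3 of 9 in Prm2+/-.

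**Figure D3:**
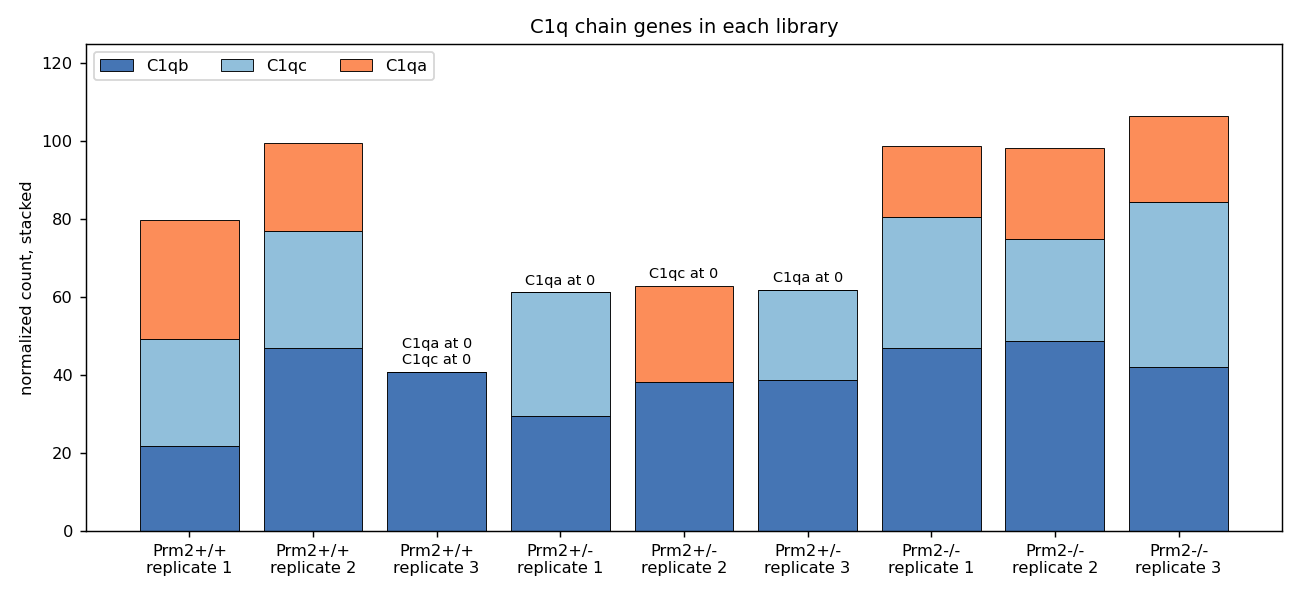
Normalized counts of C1qa, C1qb and C1qc stacked (y axis) for each of the 9 libraries (x axis), with the chains at 0 written above the bars. Each Prm2+/- library and replicate 3 of Prm2+/+ lack 1 or more chains, and the stacked sum runs from 40.9 to 107.

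H2-Aa encodes the alpha chain of the class II molecule I-A, and Cd74 the invariant chain that escorts class II molecules to the compartment where they load peptide. H2-Aa lies on chromosome 17 from 34282744 to 34287823 (minus strand) and Cd74 on chromosome 18 from 60803848 to 60812652 (plus strand). H2-Aa had 35.2, 27.9 and 35.4 normalized counts in Prm2+/+, 20.8, 27.4 and 32.7 in Prm2+/-, and 30.8, 33.5 and 30.6 in Prm2-/-. Cd74 had 31.4, 19.3 and 21 in Prm2+/+, 8.90, 26.5 and 28.3 in Prm2+/-, and 20.8, 25.4 and 26.4 in Prm2-/-. Both genes were lowest in replicate 1 of Prm2+/-, and the genotypes overlapped.

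The LFC between Prm2-/- and Prm2+/+ was -0.04 for H2-Aa (SE 0.20, interval -0.51 to 0.42, adjusted p = 0.970) and 0.04 for Cd74 (SE 0.42, interval -0.93 to 1.02, adjusted p = 0.992). Between Prm2+/- and Prm2+/+ both were -0.29 (adjusted p = 0.842 for H2-Aa and 0.880 for Cd74). The spread of H2-Aa over the 9 libraries, 15.2% of its mean, was below the 18% that counting error alone gives at its mean count.

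Cd74 and H2-Aa were the only pair among the 45 pairs of the 10 genes with an unadjusted p under 0.05 for Pearson's r across the 9 libraries. Their r was 0.83 (exact permutation p = 0.0237, adjusted p = 0.864 over the 45 pairs) and Spearman's rho was 0.43 (exact permutation p = 0.25, adjusted p = 0.862). Within genotypes r was 0.85. It fell to 0.03 without the 2 libraries farthest from the median of Cd74 and to 0.32 without replicate 1 of Prm2+/- alone, so the relation rests on those libraries. No pair passed the adjustment by Pearson's r (0 of 45), and the smallest adjusted p by Spearman's rho was 0.557, for Mrc1 and C1qc. By rho, 2 pairs had an unadjusted p under 0.05, in opposite directions. Mrc1 went against C1qc (rho -0.80, exact permutation p = 0.0124), and Cd68 went with C1qc (rho 0.74, exact permutation p = 0.0337). Both coefficients include the libraries with C1qc at 0, and Cd68 was at 0 in 6 of 9 libraries. For C1qa with C1qc, whose libraries fall into those at 0 and those at 20 or more counts, no pooled coefficient is given.

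Lyz2 encodes the lysozyme of macrophages and other myeloid cells, on chromosome 10 from 117277331 to 117282321 (minus strand). Its normalized counts were 105, 116 and 92.8 in Prm2+/+, 122, 92.3 and 117 in Prm2+/-, and 128, 105 and 75.0 in Prm2-/-. The lowest and the highest library were both Prm2-/-. The LFC of Lyz2 between Prm2-/- and Prm2+/+ was -0.06 (SE 0.21, interval -0.55 to 0.43, adjusted p = 0.959), which bounds the fold change between 0.684 and 1.35. Its paralog Lyz1, mainly a gene of the gut, lies 5476 bases away and had between 0 and 7.60 normalized counts, and whether the copies share reads was not tested.

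Over the 9 genes tested, none (0) was called between Prm2-/- and Prm2+/+, where 0.181% of all genes were called, none between Prm2+/- and Prm2+/+ (0.0806% of all genes) and none between Prm2-/- and Prm2+/- (0.175%). The 3 comparisons share libraries. None of the 9 had an unadjusted p under 0.05 in any comparison, against 7.33%, 4.24% and 5.44% of all genes. The smallest unadjusted p values were 0.183, 0.122 and 0.103, and edgeR and DESeq2 on the recovered counts called 0 of the 9 as well. At these background rates a call among 9 genes would be rare, so that the zeros add little to the intervals.

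The median LFC of the 9 genes was 0.04 between Prm2-/- and Prm2+/+, with 5 positive and 4 negative values, and the median of all genes was 0.02. Between Prm2+/- and Prm2+/+ it was -0.03 beside 0.01, and between Prm2-/- and Prm2+/- 0.25 beside -0.01. Groups that did not overlap were found in Prm2-/- against Prm2+/+ for 1 gene lower, Mrc1, and 0 higher, where 7.1% and 6.92% of all genes lay so. In Prm2+/- against Prm2+/+ this was 1 higher, Adgre1, and 0 lower (4.88% and 4.56% of all genes). In Prm2-/- against Prm2+/- it was 1 higher, C1qb, and 0 lower (7.47% and 7.25%).

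**Figure D4:**
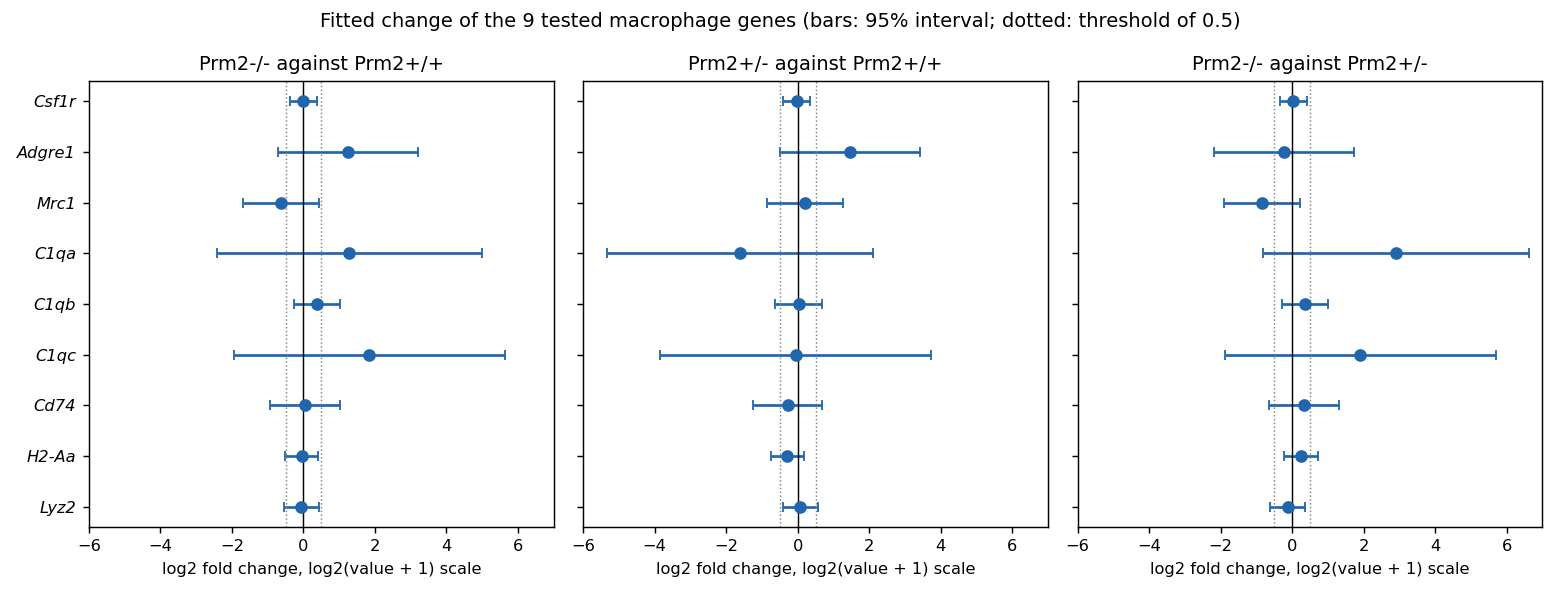
LFC with 95% interval of the 9 tested genes in the 3 comparisons between genotypes, 1 panel each, with dotted lines at the threshold of 0.5. All intervals include 0, and they are narrowest for Csf1r, H2-Aa and Lyz2 and widest for C1qa and C1qc.

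Other genes of the same pathways were described from 7 lists, some of whose genes are in more than 1 list. None (0) of the 74 genes tested in these lists and among the 10 was called by limma or edgeR in any of the 3 comparisons. DESeq2 called 1, Cd59b, between Prm2-/- and Prm2+/-, where it called 110 of all 14893 genes. For Prm2-/- against Prm2+/+ the list of the CSF1 axis and of macrophage transcription factors had 9 of 12 genes tested, 0 of them at an unadjusted p under 0.05, and a median LFC of -0.10. The 2 with the smallest p were Zeb2, a repressor that macrophages need to keep their tissue identity, at 23.9 ± 8.29 in Prm2+/+ and 34.0 ± 4.31 in Prm2-/- (LFC 0.54, adjusted p = 0.720), and Csf1, the ligand of Csf1r, at 6.30 ± 5.80 and 12.9 ± 3.52 (LFC 1.53, adjusted p = 0.761).

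Of 24 complement genes other than the C1q chains, 12 were tested, with a median LFC of 0.06 and 2 at an unadjusted p under 0.05, both higher in Prm2-/-, where 7.33% of all genes tested had such a p in either direction. Cd59b, which blocks the membrane attack complex, had 36.1, 57.9 and 23.2 normalized counts in Prm2+/+, 56.4, 17.4 and 21.2 in Prm2+/-, and 113, 101 and 134 in Prm2-/-. All Prm2-/- libraries were above all others, where 6.92% of all genes tested lay so against Prm2+/+ and 7.47% against Prm2+/-. How many genes lay above both was not counted. The LFC against Prm2+/+ was 1.63 (SE 0.47, unadjusted p = 0.00811, adjusted p = 0.510 in limma), which missed the threshold. Against Prm2+/- the LFC was 2.03 (adjusted p = 0.510 in limma and 0.0462 in DESeq2). Cd55, which speeds the decay of C3 convertases, had 129 ± 24.3 in Prm2+/+, 134 ± 18.4 in Prm2+/- and 176 ± 3.32 in Prm2-/- (LFC 0.46, unadjusted p = 0.0255, adjusted p = 0.617). Both genes are also expressed by germ cells and have a close paralog in the mouse, with which they may share reads.

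Of 14 class II pathway genes, 9 were tested, with 0 at an unadjusted p under 0.05 and a median LFC of -0.04. Ciita, the activator of class II transcription, was at 0 in all 9 libraries, as were H2-Oa and H2-Ob. Ctss, a protease that cuts the invariant chain, had 19.7 ± 5.33 in Prm2+/+ and 26.7 ± 5.10 in Prm2-/- (LFC 0.43, adjusted p = 0.727). H2-DMa, part of the peptide exchanger, was at 0 in replicate 3 of Prm2-/- and between 18.3 and 32 elsewhere. H2-Eb1, the beta chain of the class II molecule I-E, was at 0 in replicate 1 of Prm2+/- and between 24.7 and 39.8 elsewhere, and this is the library in which H2-Aa and Cd74 were lowest. H2-Eb1 was named after its values were seen.

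Of 31 other pan-macrophage and myeloid genes, 15 were tested, with 0 at an unadjusted p under 0.05 and a median LFC of 0.02. Sirpa, an inhibitory receptor for CD47, had 36.2 ± 3.62 in Prm2+/+ and 25.2 ± 3.42 in Prm2-/- (LFC -0.51, adjusted p = 0.701). The Fc receptor gene Fcgr3 had 82.0 ± 14.5 and 99.8 ± 14.5 (LFC 0.28, adjusted p = 0.746).

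The list closest to Mrc1 holds genes of interstitial tissue macrophages, of which 8 of 15 were tested, with a median LFC of 0.14. In each direction 1 had an unadjusted p under 0.05, where 7.33% of all genes tested had such a p in either direction. Cbr2, a carbonyl reductase, was at 0 in all 3 Prm2+/+ libraries and had 0, 0 and 23.0 normalized counts in Prm2+/-, and 21.7, 16.2 and 23.2 in Prm2-/-. Its unadjusted p for Prm2-/- against Prm2+/+ was 0.00625 and its adjusted p 0.478 in limma. It had 16 or more counts wherever it was above 0, the same pattern of all or none as C1qa and C1qc. Pf4, a chemokine of platelets that tissue macrophages also carry, had 40.1 ± 7.0 in Prm2+/+, 29.3 ± 1.78 in Prm2+/- and 25.1 ± 5.55 in Prm2-/- (LFC -0.66 between Prm2-/- and Prm2+/+, unadjusted p = 0.0146, adjusted p = 0.574).

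Of 17 lysosome and phagocytosis genes, 14 were tested, with a median LFC of 0.07. At an unadjusted p under 0.05, beside 7.33% of all genes tested in either direction, 1 was found, higher in Prm2-/-. This was Grn, the precursor of the lysosomal granulins, with 64.6, 4.29 and 9.94 normalized counts in Prm2+/+, 91, 63.9 and 71.6 in Prm2+/-, and 80.6, 78.1 and 87.6 in Prm2-/- (LFC 2.41, adjusted p = 0.582). Replicates 2 and 3 of Prm2+/+ stood apart from the other 7 libraries. Hexa, a lysosomal hexosaminidase, had 272 ± 50.4 in Prm2+/+ and 315 ± 14.7 in Prm2-/- (LFC 0.23, adjusted p = 0.750).

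Of 20 inflammatory cytokine and effector genes, 11 were at 0 in all 9 libraries: Tnf, Il1a, Il6, Il12a, Il12b, Nos2, Ptgs2, Ccl2, Ccl3, Ccl4 and Il10. Only 2 of the 20 had enough counts for the test. These were Ccl5, a chemokine also made by T cells, with 6.23 ± 7.08 in Prm2+/+ and 10.1 ± 2.37 in Prm2-/- (adjusted p = 0.750), and Tgfb1 with 9.99 ± 2.07 and 8.30 ± 2.54 (adjusted p = 0.875). A 0 here allows up to 3 counts per library, so that a low level of these transcripts was not detectable at this depth.

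**Figure D5:**
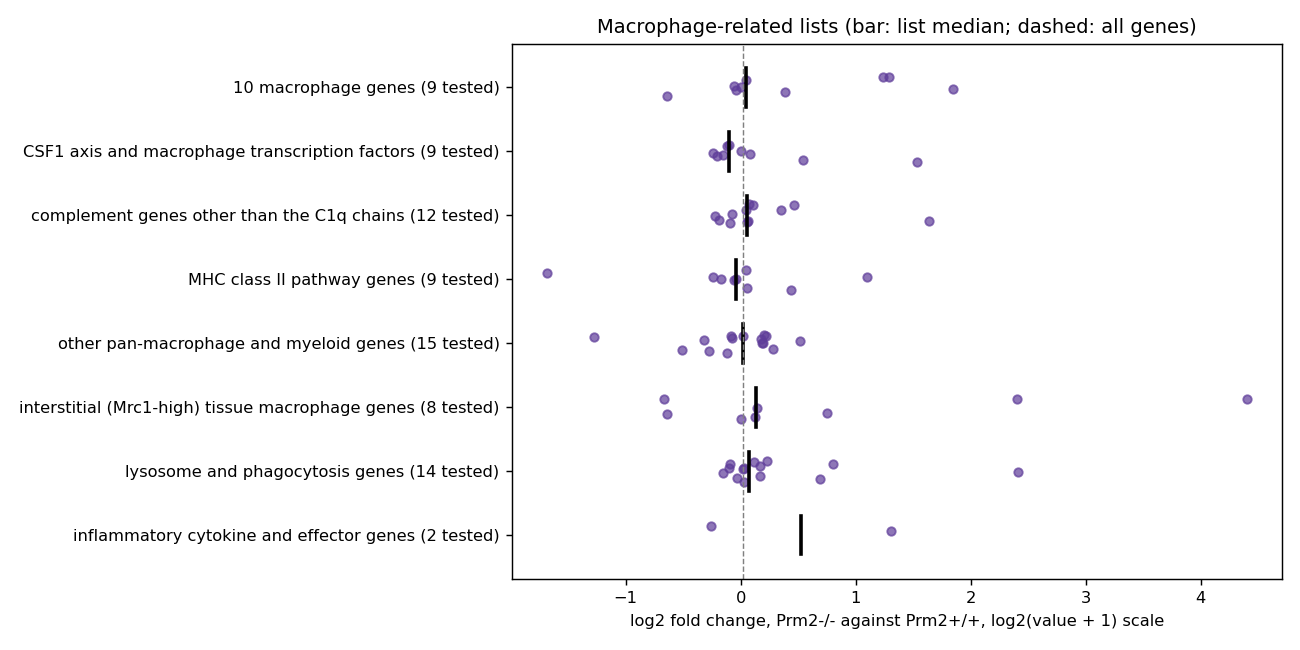
LFC between Prm2-/- and Prm2+/+ of every tested gene in the 10 macrophage genes and the 7 lists, 1 point per gene, with a bar at the median of each list and a dashed line at the median of all genes. The medians lie between -0.10 and 0.14, beside 0.02 for all genes, except for the inflammatory list with 2 genes tested (0.53), and the points farthest from 0, such as Cbr2 and Grn, belong to genes that were at or near 0 in some libraries.

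Markers of macrophages and of other cells that a testis sample can hold were read in the same libraries. Of 12 macrophage markers, 8 of which are among the 10 genes, all were above 0 in some library and 7 in every library, and none (0) of the 11 tested was called, or had an unadjusted p under 0.05, in any comparison by limma, nor was any called by edgeR or DESeq2. Their summed CPM is governed by Aif1, which germ cells also express. Without Aif1 it was 82.9 to 107 in Prm2+/+, 94.6 to 112 in Prm2+/- and 96.1 to 109 in Prm2-/-. Neutrophil markers summed to between 0 and 1.83 CPM and 5 of the 7, including Ly6g, were at 0 everywhere. Mast cell markers summed to between 0 and 1.76, with 4 of 5 at 0 everywhere. Dendritic cell markers ranged from 10.3 to 18.5, B cell markers from 8.30 to 16.5 and endothelial markers from 16.3 to 27.0, with the genotypes overlapping.

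T and NK cell markers summed to 39.2 to 50.1 CPM in Prm2+/+, 35.6 to 39.4 in Prm2+/- and 30.8 to 33.7 in Prm2-/-, with Cd3g, Cd8a and Nkg7 at 0 in every library. Each Prm2-/- sum was below each other sum, as were 7.1% of single genes tested against Prm2+/+ and 7.25% against Prm2+/-. How many genes lay below both was not counted. Only 1 of the 9 markers had enough counts for the test. This marker is part of the sum, so its change is not a separate result. Its LFC between Prm2-/- and Prm2+/+ was -0.46, with an unadjusted p under 0.05 in limma, as for 7.33% of all genes. It was not called. Class II genes are also expressed by B cells and dendritic cells, and the part of these cells in the values of H2-Aa and Cd74 was not tested. The markers of Leydig cells, neighbours of the interstitial macrophages, summed to 493 to 542 CPM in Prm2+/+, 534 to 672 in Prm2+/- and 515 to 597 in Prm2-/-.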

How the data were processed

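Testis RNA of 9 males was analysed. Per the paper and the submitters' notes, reads were trimmed (Trim Galore 0.4.5), mapped to GRCm38 (HISAT2 2.1), quantified (StringTie 1.3.3) and normalized with DESeq2. What was deposited is a signal, the normalized counts, for which the authors divided the counts of each sample by its size factor. Within 0.001, all the values (100%) of a sample divided evenly by 1 step, which gave back the counts, though in replicate 1 of Prm2+/- the step, being almost 1, is weaker evidence. On these counts edgeR called 24, 10 and 23 genes in the 3 comparisons, where limma called 27, 12 and 26. The table holds 38685 entries, 0 columns lacked a sample, and 99.6% of entries matched GENCODE M21 (GRCm38), which supplied positions.

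After filterByExpr, limma (lmFit, eBayes with trend, pseudocount 1) used all 9 samples with genotype as the only term. The 10 genes, the lists and the sequences searched were chosen with earlier results of these data known. Named from each list are the called genes or, with none, the 2 with the smallest p for Prm2-/- against Prm2+/+. The 5 genes most like the 10 were ranked by Pearson's r. Hmgxb3, Lyz1, Aif1 and genes named for being at 0 were singled out after their values were seen.

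Samples with the same number did not deviate together (correlations between -0.04 and 0.04), so numbers were not treated as pairs. Limits from counts hold for counting error alone. Alternatives were TMM scaling, pseudocounts of 0.5 and 5, other count filters, edgeR, DESeq2, fits to 6 samples, a replicate block and leaving out each sample. The fits were tested on simulated data. The tools were limma 3.58.1, edgeR 4.0.16 and DESeq2 1.42.0 in R 4.3.3, and Python 3.11.15 with scipy 1.17.1, pandas 2.3.3, numpy 2.4.6 and matplotlib 3.10.9.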

Additional observations from a re-analysis of the deposited data

How the results depend on the processing

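None of the 10 genes was called under any alternative or with any library left out, in limma, edgeR or DESeq2, and the lowest adjusted p of all these fits was 0.565. The number of the 10 genes with enough counts ran from 5, with at least 10 counts in every library, to 10, with any count. Without a library left out, 225 of 229 LFC of these genes kept their sign and their side of the adjusted p threshold, though not their size: C1qa, Prm2-/- against Prm2+/+, fell from 1.29 to 0.25 in edgeR and 0.27 in DESeq2. The other 4 were LFC near 0: Csf1r between Prm2-/- and Prm2+/+ was 0.0029 with TMM and 0.0050 in edgeR, and C1qb between Prm2+/- and Prm2+/+ was -0.032 in edgeR and -0.033 in DESeq2. With a library left out, 28 of 243 changed sign. For Prm2-/- against Prm2+/+ the ranges were -0.13 to 0.10 for Csf1r, -0.30 to 2.19 for C1qa, -0.089 to 0.25 for Cd74, -0.15 to 0.013 for H2-Aa and -0.23 to 0.15 for Lyz2. For Prm2+/- against Prm2+/+ they were -0.15 to 0.073 for Csf1r, -0.35 to 0.61 for Mrc1, -0.30 to 0.23 for C1qb, -1.69 to 1.54 for C1qc, -0.56 to 0.22 for Cd74 and -0.014 to 0.19 for Lyz2. For Prm2-/- against Prm2+/- they were -0.10 to 0.10 for Csf1r, -0.18 to 0.60 for Cd74 and -0.30 to 0.078 for Lyz2. The number of all genes called, 27, 12 and 26 in these 3 comparisons, was 9, 1 and 11 with at least 10 counts in every library, which tests fewer genes, and 131, 59 and 110 in DESeq2. It was 50 and 52 in the first and last comparison with only the 6 libraries compared, and 21 in the second with any count kept. With the replicate number as a block, it was 15, 6 and 14, although the numbers did not pair the libraries and 5 of 9 correlated best with their own number. The block changed no call among the 10 genes. With each library left out it ran from 28 to 64, from 9 to 44 and from 23 to 50. The causes of these shifts were not tested. At 304 to 496 counts for the 10 genes together, only Csf1r, Lyz2 and H2-Aa had intervals within 1.5-fold of no change in Prm2-/- against Prm2+/+.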

Other observations

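Across the 9 libraries, the genes whose levels went most closely with the mean standardized level of the 10 macrophage genes were Larp1b (Pearson's r 0.95), Ccnl1 (0.91), Snora9 (0.91), Ppm1e (0.90) and Abcb4 (0.90), out of 14884 compared. These values describe the 9 libraries only. The mean over the 10 genes, in SD of each gene's log2 values, was lowest in replicate 1 of Prm2+/- (-0.68) and highest in replicate 2 of Prm2+/+ (0.36). Ccnl1, a cyclin of splicing, showed separate levels: 110.2, 364 and 97.2 normalized counts in Prm2+/+, 102, 102 and 292 in Prm2+/-, and 293, 245 and 352 in Prm2-/-. The same 5 libraries were high for Larp1b, an RNA-binding protein, at 3108 to 3519, while the other 4 held 1864 to 2368. Both genes were picked for their r with the mean of the 10, which was above 0 in these 5 libraries and below 0 in the other 4. A shared order of the libraries is therefore built into the selection. What lies behind the separate levels was not tested. That mean includes Adgre1, C1qa, C1qc and Cd68, each of which was at 0 in 1 or more libraries. No macrophage gene is among the 5 genes picked.

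Of the genes of the 10 and the 7 lists, 5 were at 0 in some libraries and at 20 or more counts in all others: C1qa, C1qc, Gas6, H2-DMa and H2-Eb1. Gas6, a ligand that links phagocytes to dying cells, was at 0 in replicate 3 of Prm2+/+ and between 152 and 249 normalized counts in the other libraries. That library was also the one with C1qa and C1qc both at 0. These genes were picked out after their values were seen, and the cause was not tested.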
